A study of Mus musculus with 9 samples.

Results

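MHC class I molecules carry short peptides from proteins made inside a cell to its surface, where CD8+ T cells read them. The transcripts of 9 genes of this pathway were followed in B.END3 cells after photodynamic therapy (PDT): the class I heavy chains H2-K1 and H2-D1, the light chain B2m, the peptide transporter subunits Tap1 and Tap2, the peptide-loading factor Tapbp, and the immunoproteasome subunits Psmb8, Psmb9 and Psmb10. The genes were chosen by name, as the core of the pathway, but with earlier results of these data known. Each was found once among the 54532 genes with a value, so that 9 of 9 could be analysed. All 9 also passed the filter on low values, which asked for 1 FPKM or more in 3 or more libraries and kept 11727 genes in all. FPKM counts sequenced fragments relative to the length of a gene and to the depth of a library, so levels of different genes are compared here per length.

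B.END3 is a line of mouse brain endothelial cells transformed with a viral oncogene, and all groups come from this 1 line. The labels give the strain as C57BL/6 and the organism as mouse, although their growth protocol calls the cells rat. Control cells (Ctrl, 3 libraries) are labelled as untreated. Cells of Ep1 (3 libraries) and Ep2 (3 libraries) received 300 µg/mL porfimer sodium, a porphyrin photosensitizer, for 90 min and then light of 635 nm at 100 mW/cm2, to a dose of 10 J/cm2 in Ep1 and 20 J/cm2 in Ep2. No library had porfimer sodium alone or light alone, so the effects of the agent and of the light cannot be told apart, and the time from irradiation to harvest is not given in the sources used here. The labels do not say whether the 3 libraries of a group came from separate cultures, and p-values then measure only the spread between these libraries. The fragments counted on genes ranged from 16240688 to 19509225 per library, and replicates varied beyond what counting alone gives.

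The cell type was checked against defining markers, and most of these went against the label. Of 18 endothelial markers, 12 were under 1 FPKM in every library and 4 of these (Emcn, Robo4, Erg and Sox17) were at 0 in all 9, while Pecam1 lay between 0.0821 and 0.242 FPKM. Some endothelial markers were present, with Ly6c1 at 50.6 to 80.8 FPKM, Flt1 at 6.66 to 11.7, Egfl7 at 1.23 to 2.46 and Eng at 1.02 to 1.46. The epithelial keratin Krt8 reached 562 to 714 FPKM and Krt18 231 to 332 FPKM, while the other 2 epithelial markers were low (Epcam at 0.607 to 2.03 and Cdh1 at 0.0118 to 0.103 FPKM). All 9 leukocyte markers were under 1 FPKM in every library, with a summed level of 0.219 to 0.251 in Ctrl, 0.135 to 0.200 in Ep1 and 0.155 to 0.275 FPKM in Ep2, and Cd3e, Itgam and Ncr1 were at 0 throughout. All 7 markers of pericytes and smooth muscle, 4 of 5 markers of astrocytes and neurons and 4 of 5 fibroblast markers were also under 1 FPKM in every library. The summed level of the 4 epithelial markers was 859 to 902 FPKM in Ctrl, 798 to 860 in Ep1 and 900 to 1050 in Ep2, and that of the endothelial markers was 70.0 to 74.2, 63.0 to 70.7 and 68.8 to 96.4 FPKM. The first of these sums is almost all keratin and the second mostly Ly6c1. Their part in the results on the class I genes was not tested.

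In the class I pathway, proteasomes cut cytosolic proteins into peptides, and the immunoproteasome is a form in which Psmb8, Psmb9 and Psmb10 take the place of the constitutive catalytic subunits Psmb5, Psmb6 and Psmb7. The TAP transporter, a dimer of Tap1 and Tap2, carries peptides into the endoplasmic reticulum, where tapasin (the product of Tapbp) holds TAP and the empty heavy chain together until a peptide is bound. A heavy chain reaches the cell surface mostly in complex with β2-microglobulin, the product of B2m. Most of these genes are known targets of interferon-γ, and their promoters are known to be read by NLRC5, IRF and NF-κB factors.

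Of the 9 genes, 7 lie on chromosome 17, B2m lies on chromosome 2, and Psmb10 lies on chromosome 8. Psmb9, Tap1, Psmb8 and Tap2 follow each other within 34334 bases. Psmb9 and Tap1 are read in opposite directions, and their RefSeq starts, at 34187330 and 34187556 of chromosome 17 (GRCm38.p6), have 225 bases between them. The listed spans of these 2 genes overlap by 212 bases, and since the strandedness of the libraries is not given in the sources used here, fragments of that overlap cannot be told apart. Promoters are shown for the genes with opposite changes below, B2m against H2-K1 and H2-D1, and for the interval that Tap1 shares with Psmb9. Each is the 250 bases before the start, from RefSeq on GRCm38.p6, 5′ to 3′ on the strand of the gene. Capitals mark matches on either strand to the NF-κB type (GGG, then 2 bases of any kind, TT, 1 base of any kind, CC), to the IRF type (GAAA and again GAAA after 2 bases of any kind) or to the ARE type (TGACNNNGC).
B2m chr2:122147437-122147686 (+ strand): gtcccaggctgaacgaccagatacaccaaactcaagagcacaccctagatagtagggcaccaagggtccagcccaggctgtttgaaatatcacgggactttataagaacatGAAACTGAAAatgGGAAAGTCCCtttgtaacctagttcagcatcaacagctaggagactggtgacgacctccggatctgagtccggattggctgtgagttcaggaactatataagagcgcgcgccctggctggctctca
H2-K1 chr17:34000334-34000583 (- strand): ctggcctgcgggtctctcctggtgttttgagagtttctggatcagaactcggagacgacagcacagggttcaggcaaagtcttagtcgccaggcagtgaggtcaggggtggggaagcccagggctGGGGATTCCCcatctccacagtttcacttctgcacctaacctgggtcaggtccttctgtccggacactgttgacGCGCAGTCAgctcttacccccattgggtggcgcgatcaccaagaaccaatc
H2-D1 chr17:35262844-35263093 (+ strand): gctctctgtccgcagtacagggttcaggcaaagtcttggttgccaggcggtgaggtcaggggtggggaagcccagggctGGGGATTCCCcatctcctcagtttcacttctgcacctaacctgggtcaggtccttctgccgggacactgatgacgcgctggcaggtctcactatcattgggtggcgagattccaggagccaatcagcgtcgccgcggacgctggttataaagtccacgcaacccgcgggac
Tap1 chr17:34187306-34187555 (+ strand): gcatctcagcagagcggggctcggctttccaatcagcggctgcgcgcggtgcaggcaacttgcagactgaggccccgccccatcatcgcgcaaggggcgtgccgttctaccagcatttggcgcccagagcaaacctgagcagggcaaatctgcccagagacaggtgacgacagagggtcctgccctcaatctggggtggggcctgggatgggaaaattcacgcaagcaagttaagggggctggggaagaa

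RefSeq gave a promoter for 8 of the 9 genes (9 windows, as H2-K1 has 2), and Tap2 had none. The NF-κB type letters were found in the promoters of B2m, H2-K1 and H2-D1, that is 3 of 8 genes, against 4.11% of 32841 promoters of the same length. In H2-K1 and H2-D1 they read GGGGATTCCC and stand inside a run of 47 bases that both promoters share, while in B2m they read GGAAAGTCCC on the printed strand. The IRF type letters were found in B2m (2.98% of all promoters), the ARE type letters in H2-K1 (10.2%), the GAS type letters TTCNNNGAA in Psmb8 (7.02%), and the AP-1 type letters TGANTCA in none of the 9 windows (6.75%). Some matches can overlap matches of other kinds, and a match is only a description of these letters. Only these exact patterns were searched, so a promoter without a match can still hold a looser form of a site. The NF-κB type letters were present in B2m, which rose in Ep2, and in H2-K1 and H2-D1, which fell. The part of these letters in the changes was not tested.

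At the higher light dose, the class I genes changed in both directions. In Ep2 with Ctrl, 2 of 9 rose (B2m and Tapbp), 6 of 9 fell (H2-K1, H2-D1, Tap1, Psmb8, Psmb9 and Psmb10) and Tap2 did not pass the test (adjusted p-value below 0.05, limma with Benjamini-Hochberg adjustment over all 11727 genes). Over all genes tested, 23.9% rose and 29.3% fell (28.2% and 25.3% after median centring, 25.3% and 24.7% with voom). In these bulk libraries, fewer cells that express a gene and less of its RNA per cell cannot be told apart. The median log2 fold change of the 9 genes was -0.45, against -0.03 for all genes tested. A threshold of 0.6 on the absolute log2 fold change was passed by Psmb10 alone, which fell, as did 5.87% of all genes. The fit used log2(FPKM + 1), a scale that understates changes of low genes. By mean FPKM, Ep2 was at 0.604 of Ctrl for Tap1 and 0.593 for Psmb9, against 0.571 for Psmb10. With voom, or with 0.1 added in place of 1, Tap1 and Psmb9 passed the threshold too. At the lower dose, in Ep1 with Ctrl, 0 of 9 rose and 1 of 9 fell (Psmb10), against 6.32% and 4.97% of all genes (6.57% and 7.57% with voom), and 0 passed the fold threshold, where 0.222% of all genes fell. At an unadjusted p below 0.05, limma had 1 of the 9 higher and 3 lower in Ep1, and voom on the recovered fragments called 0 higher and 2 lower. The count of 1 fall became 0 without Ctrl replicate 1, Ctrl replicate 2 or Ep1 replicate 3. Between the doses, in Ep2 with Ep1, 2 rose (B2m and Tapbp) and 6 fell (H2-K1, H2-D1, Tap1, Tap2, Psmb8 and Psmb10), against 18.8% and 25.2% of all genes. All Ep2 libraries were above all Ctrl libraries for 2 of the 9 genes and below them for 6 (27.0% and 32.7% of all genes), and the same counts of 2 and 6 hold against the Ep1 libraries (24.1% and 30.3%). All Ep1 libraries were above Ctrl for 1 of the 9 genes and below for 5 (20.8% and 20.5%). The background shares of Ep2 with Ep1 rest on the scaling of the libraries: 42.8% of the called genes were higher as reported, 55.5% after median centring (25.4% of tested genes rose and 20.3% fell) and 52.8% with voom (22% and 19.7%). Tap1 was the only one of the 9 past the fold threshold in that comparison, with a fall, as were 3.97% of all genes. Without Ep1 replicate 3, without Ep2 replicate 3 or after median centring, 0 of 9 passed it there, and without Ep2 replicate 1 Tap1 joined Psmb10 past it in Ep2 with Ctrl (2 of 9).

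**Figure D1:**
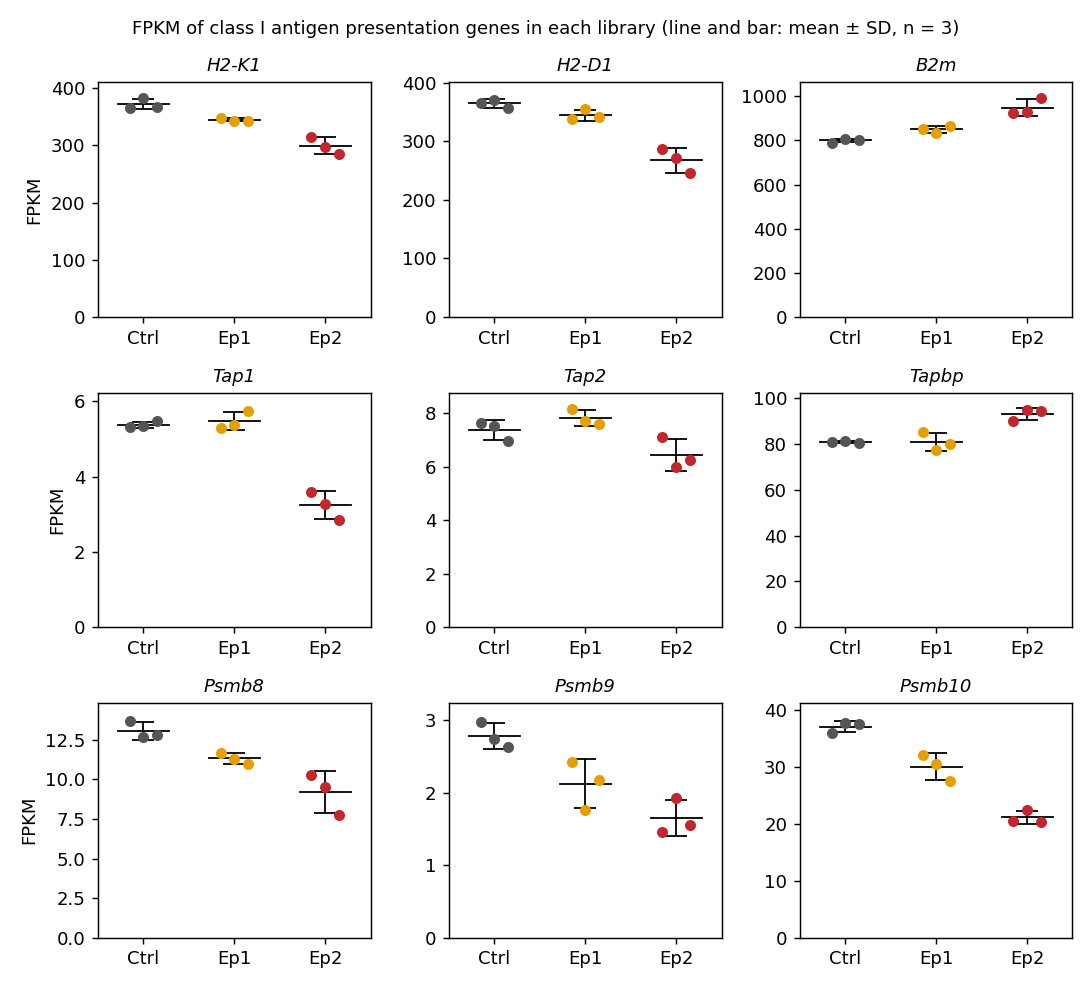
FPKM of the 9 genes in each library, 3 libraries per group, with Ctrl in grey, Ep1 in orange and Ep2 in red, each axis from 0; the long line is the mean and the bar the SD (n = 3). The Ep2 points of B2m and Tapbp lie above all Ctrl points, those of 6 genes lie below, and those of Tap2 overlap with Ctrl.

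The heavy and light chains moved apart. Class I heavy chain alleles differ between strains, and whether the line carries those of the reference was not tested, so reads of H2-K1, H2-D1 and the Qa/Tla genes could be lost or moved and their levels, and ratios to B2m, hold within this limit. H2-K1 (ENSMUSG00000061232, chromosome 17, 33996017 to 34000333), 1 of the 2 classical heavy chains, had 366, 382 and 367 FPKM in Ctrl, 348, 343 and 343 in Ep1, and 315, 298 and 285 in Ep2. All Ep1 libraries were below all Ctrl libraries, and all Ep2 libraries were below both. Its mean was 372 ± 9.14, 345 ± 3.0 and 299 ± 14.8 FPKM in Ctrl, Ep1 and Ep2 (SD, n = 3). The log2 fold change was -0.31 (SE 0.0425, 95% interval -0.41 to -0.22) in Ep2 with Ctrl, with an adjusted p of 0.000256 by limma, a change of the mean FPKM by -19.5%. In Ep1 with Ctrl it was -0.11 (interval -0.20 to -0.01, adjusted p = 0.128 by limma), although the libraries did not overlap. This change of H2-K1 passed the test with voom (adjusted p = 0.0493) and in a limma fit of only Ep1 and Ctrl (0.0485).

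H2-D1 (ENSMUSG00000073411, chromosome 17, 35262730 to 35267499), the other classical heavy chain, had 365, 371 and 357 FPKM in Ctrl, 337, 355 and 341 in Ep1, and 287, 271 and 245 in Ep2. The Ep2 libraries were the lowest, the Ep1 libraries lay between, and no groups overlapped. The mean was 364 ± 7.31, 344 ± 9.58 and 268 ± 21.1 FPKM (SD, n = 3). H2-D1 changed by -26.5% in Ep2, with a log2 fold change of -0.45 (SE 0.0557, interval -0.57 to -0.32, adjusted p = 0.000157 by limma). Of the 100-base windows of its transcript, 4.59% also occur in another gene, most often H2-Q1, so reads there could be split, whereas for H2-K1 the share was 0%.

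B2m (ENSMUSG00000060802, chromosome 2, 122147686 to 122153083), the light chain common to all class I molecules, was the most abundant of the 9 genes and went the other way. It had 790, 807 and 801 FPKM in Ctrl, 853, 831 and 864 in Ep1, and 925, 926 and 992 in Ep2. Each dose was above the group before it in every library. The mean was 799 ± 8.92, 849 ± 17 and 948 ± 38.1 FPKM (SD, n = 3), a change of +18.6% in Ep2. The log2 fold change was 0.24 (SE 0.0387, interval 0.16 to 0.33) in Ep2 with Ctrl (adjusted p = 0.000615 by limma) and 0.09 in Ep1 with Ctrl (interval 0.00 to 0.17, adjusted p = 0.168 by limma).

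The ratio of a heavy chain to B2m within a library does not depend on how the libraries were scaled. The FPKM of H2-K1 divided by that of B2m was 0.465 ± 0.00768, 0.406 ± 0.00825 and 0.317 ± 0.0266 in Ctrl, Ep1 and Ep2 (SD, n = 3). For H2-D1 the ratio was 0.456 ± 0.00934, 0.405 ± 0.0190 and 0.283 ± 0.0325. Both ratios were lower in every Ep1 library than in every Ctrl library, and lower again in every Ep2 library. The log2 ratio changed by -0.56 for H2-K1 and by -0.69 for H2-D1 in Ep2 with Ctrl, each with p = 0.1 in a two-sided exact permutation test. With 3 libraries against 3, 0.1 is the smallest p the design allows, and it becomes 0.162 after Benjamini-Hochberg adjustment over the 21 comparisons of 7 ratios. These ratios to B2m, and those of Tap1 given below, were chosen after their values were seen.

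The genes of the peptide-loading complex also moved in different directions. Tap1 (ENSMUSG00000037321, chromosome 17, 34187553 to 34197225), an ATP-driven transporter subunit, had 5.32, 5.33 and 5.46 FPKM in Ctrl, 5.29, 5.38 and 5.73 in Ep1, and 3.59, 3.28 and 2.86 in Ep2. The Ctrl and Ep1 libraries overlapped, and all Ep2 libraries were lower. Its mean went from 5.37 ± 0.0761 in Ctrl and 5.46 ± 0.230 in Ep1 to 3.24 ± 0.368 FPKM in Ep2 (SD, n = 3), which is -39.6% from Ctrl. The log2 fold change was -0.59 (SE 0.0673, interval -0.74 to -0.44, adjusted p = 9.36e-05 by limma) in Ep2 with Ctrl, -0.61 (interval -0.76 to -0.46, adjusted p = 0.000123) in Ep2 with Ep1, and 0.02 (interval -0.13 to 0.17, adjusted p = 0.871) in Ep1 with Ctrl.

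Tap2 (ENSMUSG00000024339, chromosome 17, 34203527 to 34216321), the partner of Tap1 in the transporter, had 7.64, 7.52 and 6.95 FPKM in Ctrl, 8.16, 7.71 and 7.58 in Ep1, and 7.12, 5.99 and 6.24 in Ep2. The highest Ep2 library lay above the lowest Ctrl library, and all Ep2 libraries lay below those of Ep1. The log2 fold change was -0.17 (interval -0.32 to -0.02, adjusted p = 0.0529 by limma) in Ep2 with Ctrl and -0.25 (interval -0.39 to -0.10, adjusted p = 0.0135) in Ep2 with Ep1. Without Ep2 replicate 1 the change of Tap2 from Ctrl passed the test (adjusted p = 0.0073 by limma), as it did without Ctrl replicate 3 (0.0427), and its adjusted p ranged from 0.0073 to 0.172 over all alternatives.

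Tapbp (ENSMUSG00000024308, chromosome 17, 33915899 to 33929288), which encodes tapasin, had 80.8, 81.4 and 80.2 FPKM in Ctrl, 85.1, 77.5 and 79.7 in Ep1, and 90.1, 94.6 and 94.4 in Ep2. Ctrl and Ep1 overlapped, and every Ep2 library was above both. The mean of 93.0 ± 2.57 FPKM in Ep2 was 15.1% above the 80.8 ± 0.610 FPKM of Ctrl (SD, n = 3), with a log2 fold change of 0.20 (SE 0.0430, interval 0.10 to 0.30, adjusted p = 0.00346 by limma). The span of Tapbp overlaps that of Zbtb22 on the same strand by 3421 bases. Zbtb22 had 523 to 846 fragments per library against 4282 to 5836 for Tapbp.

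The 3 genes of peptide transport and loading were thus no longer at the same proportions in Ep2. The ratio of Tap1 to Tapbp was 0.0665 ± 0.00138, 0.0678 ± 0.00503 and 0.0349 ± 0.00481 in the order Ctrl, Ep1 and Ep2, a log2 difference of -0.94 between Ep2 and Ctrl (exact permutation p = 0.1, n = 3). The ratio of Tap1 to Tap2, whose products form the TAP dimer, was 0.730 ± 0.0480, 0.700 ± 0.0537 and 0.503 ± 0.0446, a log2 difference of -0.54 (exact permutation p = 0.1, n = 3). Both ratios were lower in every Ep2 library than in any other, and both overlapped between Ctrl and Ep1.

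All 3 catalytic subunits of the immunoproteasome fell in Ep2. Psmb10 (ENSMUSG00000031897, chromosome 8, 105935735 to 105938444), the trypsin-like subunit, had 36.0, 37.7 and 37.6 FPKM in Ctrl, 32.2, 30.6 and 27.5 in Ep1, and 20.6, 22.5 and 20.4 in Ep2. Every Ep1 library was below every Ctrl library and above every Ep2 library. The mean was 37.1 ± 0.930, 30.1 ± 2.37 and 21.2 ± 1.14 FPKM (SD, n = 3), or -18.8% in Ep1 and -42.9% in Ep2. The log2 fold change was -0.29 (SE 0.0615, interval -0.43 to -0.16, adjusted p = 0.0206 by limma) in Ep1 with Ctrl, -0.78 (interval -0.92 to -0.64, adjusted p = 1.35e-05) in Ep2 with Ctrl and -0.49 (interval -0.63 to -0.35, adjusted p = 0.00025) in Ep2 with Ep1. The call in Ep1 was lost when Ctrl replicate 1 (adjusted p = 0.0548 by limma), Ctrl replicate 2 (0.0885) or Ep1 replicate 3 (0.0712) was left out and when no filter was used (0.0661), and its adjusted p ranged from 0.00376 to 0.0885 over all alternatives.

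Psmb8 (ENSMUSG00000024338, chromosome 17, 34197721 to 34201454), the chymotrypsin-like subunit, had 13.7, 12.7 and 12.8 FPKM in Ctrl, 11.7, 11.3 and 11 in Ep1, and 10.3, 9.53 and 7.73 in Ep2. No groups overlapped. The mean was 13.1 ± 0.547, 11.3 ± 0.376 and 9.20 ± 1.34 FPKM (SD, n = 3). The log2 fold change was -0.19 in Ep1 with Ctrl (adjusted p = 0.181 by limma). A limma fit of only Ep1 and Ctrl called this change (adjusted p = 0.031). In Ep2 with Ctrl the log2 fold change was -0.47 (SE 0.0864, adjusted p = 0.00145 by limma). In Ep2 with Ep1 it was -0.28 (adjusted p = 0.0248 by limma), and this call was lost without Ep1 replicate 1 (0.0722) or 2 (0.0613), without a filter (0.0714), after median centring (0.0562) and in a fit of only these groups (0.0519), with a range of 0.0055 to 0.0722 over all alternatives.

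Psmb9 (ENSMUSG00000096727, chromosome 17, 34181988 to 34187764), the remaining inducible subunit, was the lowest of the 9 genes, with 95 to 210 fragments per library. It had 2.98, 2.74 and 2.63 FPKM in Ctrl, 2.43, 1.76 and 2.18 in Ep1, and 1.46, 1.93 and 1.56 in Ep2. Both doses lay below Ctrl in every library, while Ep1 and Ep2 overlapped. The log2 fold change was -0.52 (SE 0.0978, interval -0.74 to -0.30, adjusted p = 0.00174 by limma) in Ep2 with Ctrl. For Ep1 with Ctrl it was -0.28 (adjusted p = 0.0919) and in Ep2 with Ep1 -0.23 (adjusted p = 0.0792), which passed the test without Ep1 replicate 2 (0.0306) and without Ep2 replicate 2 (0.0411), in a range of 0.0306 to 0.237.

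**Figure D2:**
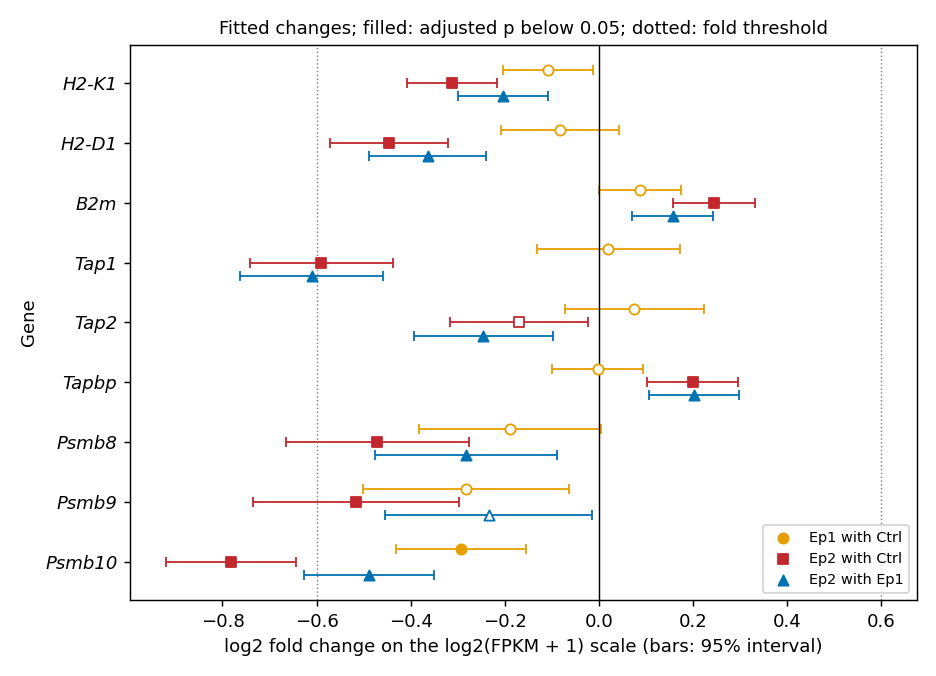
Fitted log2 fold change of each gene on the log2(FPKM + 1) scale (x axis) in Ep1 with Ctrl (circles), Ep2 with Ctrl (squares) and Ep2 with Ep1 (triangles), with 95% intervals; filled symbols have an adjusted p below 0.05 by limma, and dotted lines mark 0.6 in either direction. Psmb10 is the only filled circle, and only Psmb10 in Ep2 with Ctrl and Tap1 in Ep2 with Ep1 lie past a dotted line.

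The constitutive counterparts of these subunits fell in Ep2 as well, all 3 of 3, against 29.3% of all genes. Psmb5 went from 191 ± 11.8 in Ctrl to 148 ± 16.2 FPKM in Ep2 (log2 fold change -0.37, adjusted p = 0.00337 by limma), Psmb6 from 131 ± 3.43 to 93.9 ± 7.81 (-0.48, adjusted p = 0.000155) and Psmb7 from 74.9 ± 2.13 to 59.6 ± 5.76 FPKM (-0.33, adjusted p = 0.00187; SD, n = 3). In Ep1 with Ctrl, 0 of these 3 genes passed the test with limma or with voom, nor did any have an unadjusted p below 0.05. Over all genes, 6.32% rose and 4.97% fell there with limma, and 6.57% and 7.57% with voom. For Psmb5, 24.8% of the 100-base windows of its transcript also occur in another gene, most often Gm3375, so its level is uncertain.

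The inducible subunits were therefore set against the subunits they replace, within each library. Psmb10 was at 0.495 ± 0.00779, 0.382 ± 0.0304 and 0.357 ± 0.0309 of Psmb7 in the order Ctrl, Ep1 and Ep2 (SD, n = 3). Every library of both doses was below every Ctrl library (log2 differences of -0.38 and -0.48, each with exact permutation p = 0.1, n = 3), and both doses overlapped. Psmb9 was at 0.0212 ± 0.00190, 0.0172 ± 0.00336 and 0.0176 ± 0.00200 of Psmb6, with Ep2 below Ctrl in every library (log2 difference -0.27, exact permutation p = 0.1, n = 3) and Ep1 overlapping with Ctrl (-0.32, exact permutation p = 0.2, n = 3). These differences of a low gene changed in size between alternatives. That of Ep2 ranged from -0.34 to -0.18 (without Ep2 replicate 1) when 1 replicate was left out. That of Ep1 ranged from -0.45 to -0.16 (without Ep1 replicate 2). As a ratio of FPKM + 1 they were -0.03 in Ep2 (exact permutation p = 0.8, n = 3) and -0.20 in Ep1. The added 1 is large beside Psmb9 and small beside Psmb6. That ratio therefore shrinks a fall of Psmb9 and cannot decide whether the difference is steady. Psmb8 was at 0.0687 ± 0.00513, 0.0589 ± 0.00379 and 0.0621 ± 0.00263 of Psmb5, and all 3 groups overlapped (-0.14 in Ep2 with Ctrl, exact permutation p = 0.2, n = 3).

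**Figure D3:**
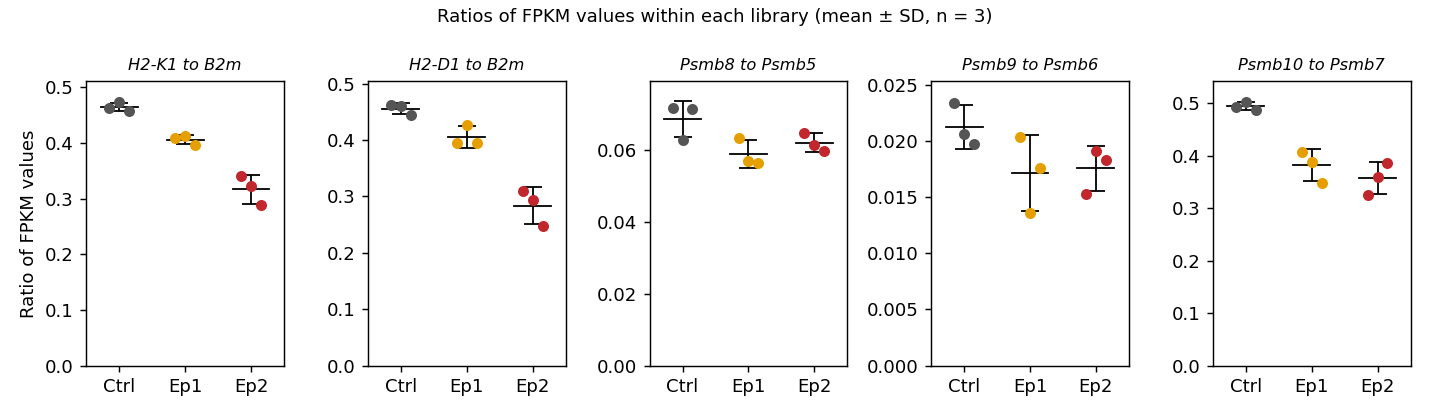
Ratio of 2 FPKM values within each library (y axis, no unit, from 0) for both heavy chains to B2m and for each inducible proteasome subunit to the constitutive subunit it replaces; points are libraries, with the mean and SD (n = 3). Both heavy chain ratios step down from Ctrl to Ep1 to Ep2 without overlap, Psmb10 to Psmb7 is below Ctrl at both doses, and the groups of Psmb8 to Psmb5 overlap.

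The order of the 9 genes by level was the same in all 3 groups, in FPKM: B2m, H2-K1, H2-D1, Tapbp, Psmb10, Psmb8, Tap2, Tap1 and Psmb9. Among neighbours in this order, only H2-K1 and H2-D1 overlapped between their libraries, and they did so in each group. The summed FPKM of H2-K1, H2-D1 and B2m stayed between 1490 and 1560 in all libraries. The summed FPKM of the 3 immunoproteasome subunits was 52.7 to 53.1 in Ctrl, 40.7 to 46.4 in Ep1 and 29.7 to 33.9 in Ep2, with no overlap. By Pearson's r of log2(FPKM + 1) over the 9 libraries, given as a description since the libraries fall into 3 groups, H2-K1 and H2-D1 were most alike (0.973) and H2-D1 and B2m most opposed (-0.971), while B2m and Tapbp had an r of 0.871. Among 7245 other genes with a mean of at least 5 FPKM, the genes most like B2m were Degs1 (0.993), Hmga2 (0.989), Kat6a (0.985), Wdr26 (0.983) and Msn (0.982). Those most like Tap1 were Gmnn (0.997), Ska3 (0.996), Ppp1cc (0.994), Tpx2 (0.993) and Glrx5 (0.993). Gmnn, an inhibitor of replication licensing, went from 36.8 FPKM in Ctrl and 37.6 in Ep1 to 21.3 in Ep2, and the spindle factor Tpx2 from 59.1 and 60.5 to 33.5.

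The rest of the pathway was described with lists of genes. Of 20 non-classical and Qa/Tla class I genes, 10 passed the filter, and in Ep2 with Ctrl 4 of these rose and 2 fell, against 23.9% and 29.3% of all genes. Among the 4 rises, Mr1 lay under 1 FPKM in every Ctrl and Ep1 library. It passed the filter only through Ep2, where it was high, so its rise lends the count no support. H2-T23, which encodes Qa-1 and presents leader peptides of other class I chains, rose from 11.4 ± 0.438 to 17.8 ± 0.725 FPKM (0.60 on the log2 scale, adjusted p = 3.75e-05 by limma), and H2-Q4 fell from 23.7 ± 0.585 to 15.3 ± 0.848 FPKM (-0.60, adjusted p = 1.77e-05; SD, n = 3). The share of windows found in other genes was 6.43% for H2-T23 and 2.82% for H2-Q4. Among 13 genes of peptide loading and trimming, 6 rose and 1 fell in the same contrast (23.9% and 29.3% of all genes). The aminopeptidase gene Lnpep rose at both doses (0.35 in Ep1, adjusted p = 0.00652, and 0.67 in Ep2, adjusted p = 8.04e-06, by limma), and Thop1, a cytosolic peptidase, fell at both (-0.31, adjusted p = 0.0203, and -1.21, adjusted p = 2.85e-06). Thop1 went from 21.7 ± 1.13 to 17.3 ± 1.28 and 8.80 ± 0.545 FPKM over the groups (SD, n = 3), and its call in Ep1 was lost without Ctrl replicate 1 or 2, without Ep1 replicate 1 or 3, and without a filter (highest adjusted p 0.0899).

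Genes of the proteasome activator and of proteasome assembly fell in 8 of 9 cases in Ep2 with Ctrl and rose in 1, against 29.3% and 23.9% of all genes, and the median log2 fold change was -0.49. Voom called 7 lower and 1 higher. Among the 8 was Psme2 (adjusted p = 0.0329 by limma), whose Ep2 and Ctrl libraries overlapped. Of its 100-base windows, 25.2% also occur in another gene, most often Psme2b, so its level is uncertain. The largest fall was that of Psmg1, an assembly chaperone, from 16.0 ± 1.23 to 10.0 ± 0.569 FPKM (-0.63 on the log2 scale, adjusted p = 0.000114 by limma). The rise was that of Psme4 (0.15, adjusted p = 0.0407), which was lost without Ctrl replicate 1 or 2, without Ep2 replicate 3 and under 3 of the other alternatives. At the lower dose, limma called 0 of these 9 genes (1 higher and 4 lower at an unadjusted p below 0.05) and voom 1, which was higher. Over all genes, 6.32% rose and 4.97% fell there with limma, and 6.57% and 7.57% with voom.

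Of 13 genes listed as transactivators and promoter factors of MHC genes, 2 rose and 1 fell in Ep2 with Ctrl (23.9% and 29.3% of all genes). Their median change was -0.06 on the log2 scale. Nlrc5, the class I transactivator, was at 2.27 ± 0.212 FPKM in Ctrl and 2.05 ± 0.166 in Ep2 (log2 fold change -0.10, adjusted p = 0.278 by limma). Irf1, an interferon-induced activator, was at 17.8 ± 0.665, 14.1 ± 0.612 and 16.5 ± 1.21 FPKM in the order Ctrl, Ep1 and Ep2. It fell in Ep1 (-0.32, adjusted p = 0.0139 by limma) and was not called in Ep2 with Ctrl (-0.11, adjusted p = 0.156). The fall in Ep1 was lost without Ctrl replicate 2, Ep1 replicate 1 or Ep1 replicate 3 (highest adjusted p 0.0689). Rela, a subunit of NF-κB, rose from 34.5 ± 1.18 to 42.3 ± 0.844 FPKM in Ep2 (0.29, adjusted p = 0.000515), and Rfxank fell (-0.33, adjusted p = 0.0162), a fall lost without Ctrl replicate 3 (adjusted p = 0.0539 by limma).

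Genes of the interferon receptors, their kinases and other factors of the same signalling rose in 9 of 11 cases in Ep2 with Ctrl (9 of 11 with voom) and 0 fell, by limma, voom or an unadjusted p below 0.05, with a median of 0.29, against 23.9% of all genes that rose. Of the 7 receptor and kinase genes 6 rose, Tyk2 being the exception, and the other 3 rises were Stat2, Irf9 and the inhibitor Socs3. That of Stat2 was lost without Ctrl replicate 1 or 2, without Ep2 replicate 1 or 2 and under 3 of the other alternatives (highest adjusted p 0.139 by limma). Jak1 rose from 31.5 ± 0.127 to 42.1 ± 2.05 FPKM (0.40, adjusted p = 0.000102 by limma; SD, n = 3). At the lower dose, limma called 0 of 11 (2 higher and 2 lower at an unadjusted p below 0.05) and voom 1, which was lower. Over all genes, 6.32% rose and 4.97% fell there with limma, and 6.57% and 7.57% with voom. In Ep2 with Ep1, 9 of 11 rose, against 18.8% of all genes, with Stat2, a factor of interferon signalling, at 1.80 ± 0.00478 FPKM in Ep1 and 3.2 ± 0.342 in Ep2 (0.58, adjusted p = 0.00155 by limma). Of 9 genes of MHC class II presentation, 2 passed the filter. In Ep2 with Ctrl, 1 of these 2 rose, against 23.9% of all genes. It was Cd74, the invariant chain, which went from 4.02 ± 0.341 to 8.97 ± 0.938 FPKM (0.99, adjusted p = 4.29e-05 by limma). H2-Aa, H2-Eb1 and H2-Ob were at 0 in every library. Of 8 inhibitory and co-signal ligands, 5 passed the filter. In Ep2 with Ctrl, 1 of these 5 rose, which is near the 23.9% of all genes. It was Cd47, whose product restrains phagocytes, from 19.3 ± 0.478 to 24.2 ± 0.634 FPKM (0.31, adjusted p = 0.000284 by limma). In Ep2 with Ctrl, 2 of 5 tested endothelial markers and 2 of 3 tested epithelial markers rose (23.9% of all genes). Among them were Flt1 at 0.59 (adjusted p = 9.67e-05 by limma) and Epcam at 0.61 (adjusted p = 0.00154 by limma). Epcam and the other endothelial rise, Plvap, would not have passed the filter without the Ep2 libraries, where they were high. The filter thus favoured these rises, and they lend the counts no support. The part of the markers in the results on the class I genes was not tested.

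**Figure D4:**
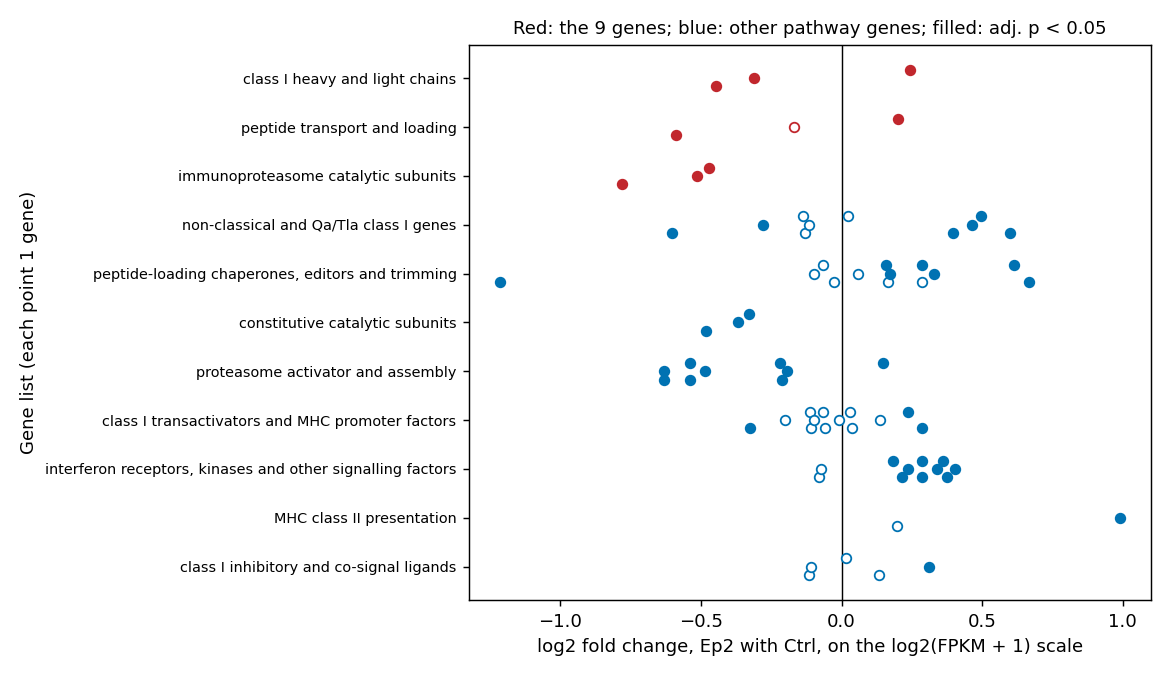
Fitted log2 fold change of Ep2 with Ctrl on the log2(FPKM + 1) scale (x axis) for each tested gene of 11 lists (y axis); red points are the 9 class I presentation genes, blue points the other genes of the pathway, and filled points have an adjusted p below 0.05 by limma. Proteasome genes of all kinds lie on the left except Psme4, genes of interferon signalling lie mostly on the right, and the heavy and light chains lie on both sides.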

How the data were processed

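Total RNA of 9 libraries was sequenced as 150-base read pairs, and the authors deposited 1 FPKM value per gene and library for 54532 genes, normalized by them for gene length and library size. The paper's text names no aligner or counter. The submitters' processing notes list Bowtie 0.12.2 and mm8 and the methods name GRCm39, but 99.8% of 37795 listed positions overlap the RefSeq gene on GRCm38.p6, so positions refer to GRCm38. FPKM times gene length gave whole fragments (tolerance 0.05), 16240688 to 19509225 per library, and the spread between libraries, above counting noise, sets the precision.

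Groups followed the titles. The 11727 genes that reached 1 FPKM in 3 or more of the 9 libraries were tested on log2(FPKM + 1), a scale that understates changes of low genes, with limma 3.58.1 (R 4.3.3; lmFit, eBayes with trend and robust estimation, all 9 libraries) and Benjamini-Hochberg adjustment within each comparison. A gene was called at an adjusted p below 0.05, and the fold threshold was 0.6. Ratios of FPKM values were tested with two-sided exact permutation tests (scipy 1.17.1). Alternatives were no filter, a filter at 5 FPKM, a pseudocount of 0.1, median centring, a fit of only the compared groups, a replicate block, voom on the recovered fragments (10 or more in 3 or more libraries), plain empirical Bayes, ratios of FPKM + 1 and leaving out each replicate. The code was tested on simulated data.

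The 9 genes and all lists were chosen with earlier results of these data known. Named besides the 9 were, per list and comparison, the called genes with the largest rise and fall, the constitutive catalytic subunits, Nlrc5 and Irf1, and for B2m and Tap1 the 5 most correlated genes. 1 further gene that the rule names is not reported here. Exact 100-base windows were counted on the longest coding transcript of each gene in GENCODE M39.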

Additional observations from a re-analysis of the deposited data

Results flagged for a closer look

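For 4 genes of the lists around the class I pathway, all 3 libraries of Ep1 lay on one side of all Ctrl libraries and all 3 of Ep2 on the other, as was the case for 491 of the 11727 tested genes (4.19%) and 4 of 84 tested genes of the lists (4.76%). These genes were picked for that pattern, which separates the doses by itself, so their values are a description with no test of the difference. H2-Q4, a Qa class I heavy chain, was at 23.7 ± 0.585, 26.5 ± 0.985 and 15.3 ± 0.848 FPKM in Ctrl, Ep1 and Ep2 (SD, n = 3), and its log2 fold change of Ep2 with Ep1 was -0.75. Psmb7, a constitutive proteasome subunit, was at 74.9 ± 2.13, 78.9 ± 0.138 and 59.6 ± 5.76 FPKM, with a log2 fold change of -0.40. Nfya, a subunit of the NF-Y promoter factor, was at 17.2 ± 0.912, 18.6 ± 0.620 and 15.9 ± 0.114 FPKM, with -0.21. Sec61g, a part of the translocon, went the other way, at 54.8 ± 2.18, 44.7 ± 4.15 and 61.6 ± 3.37 FPKM, with 0.46. None of the 9 class I presentation genes showed such a pattern.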

How the results depend on the processing

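In Ep2 with Ctrl, the 8 called genes of the 9 stayed called under every alternative that tested them, with 8 to 9 calls when 1 replicate was left out, and Psmb9 had no value under the stricter filter. In Ep2 with Ep1, 7 to 9 were called. In Ep1 with Ctrl, the 1 call became 0 without a filter, 2 with voom and 3 in a fit of only the compared groups, and ranged from 0 to 1 with 1 replicate left out. The 2 with voom were Psmb10 and H2-K1, and the fit of only the compared groups called these and Psmb8. Past the fold threshold in Ep2 with Ctrl, 1 gene became 3 with a pseudocount of 0.1 and 3 with voom (1 to 2 with 1 replicate left out), and in Ep2 with Ep1, 1 became 0 after median centring (0 to 1). The genes added in Ep2 with Ctrl were Tap1 (-0.72 with the pseudocount of 0.1 and -0.71 with voom) and Psmb9 (-0.73 and -0.74). Both are low genes, whose changes the log2(FPKM + 1) scale understates. The cause of the other shifts was not tested. The sign turned, among uncalled values, for Tap1 (-0.0080 to 0.0401) and Tapbp (-0.0402 to 0.0267) in Ep1 with Ctrl and for the log2 ratio of Psmb9 to Psmb6 in Ep2 with Ep1 (-0.11 to 0.17) when 1 replicate was left out. Of the recomputed log2 fold changes of the 9 genes, 353 kept their direction and side of the threshold, 9 gained a call, 9 lost one and 4 turned their sign. Same-numbered libraries of different groups did not deviate together (9 correlations from -0.0565 to 0.0744, with 2 of 9 libraries closest to their own number), so the numbers pair nothing. With the replicate block, 9 of the 9 genes were called in Ep2 with Ctrl, Tap2 having an adjusted p of 0.0325, against 1 in Ep1 with Ctrl and 8 in Ep2 with Ep1. Genes at 0 in all libraries could not be fitted without a filter. With 3 libraries per group no ratio can reach a p below 0.1, and Psmb9, with 95 to 210 fragments, has the widest intervals.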

Other observations

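Ep2 replicate 1 stood apart from the other 2 Ep2 libraries in chaperones of the endoplasmic reticulum, an observation made after their values were seen. Hspa5, the main chaperone of that compartment, lay between 366 and 648 FPKM in Ep2, with a mean of 463 ± 161, against 292 ± 9.17 in Ctrl and 334 ± 11.6 in Ep1 (SD, n = 3). Calr, which holds class I heavy chains during folding, lay between 291 and 454 FPKM in Ep2, against 267 to 285 in Ctrl and 263 to 276 in Ep1. Its log2 fold change of 0.29 in Ep2 with Ctrl did not pass the test (adjusted p = 0.148 by limma). Among the Ep2 libraries, this one was also the nearest to Ctrl for H2-K1, H2-D1, Tap1, Tap2, Tapbp and Psmb8, but not for Psmb9 or Psmb10. For B2m it was almost level with Ep2 replicate 2 (925 and 926 FPKM). Without it, all 9 of the class I presentation genes were called in Ep2 with Ctrl, 2 of them higher and 7 lower.

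Fcgrt, the class I-like receptor that recycles antibodies, was at 5.02 ± 0.159, 5.32 ± 0.152 and 7.34 ± 0.767 FPKM in Ctrl, Ep1 and Ep2, and Mr1, which presents microbial vitamin metabolites, at 0.744 ± 0.172, 0.692 ± 0.163 and 1.30 ± 0.205 FPKM (SD, n = 3). Both were named after their values were seen, and in both the Ep2 libraries were above all other libraries. Mr1 passed the filter only through its Ep2 libraries, so the filter favoured this pattern for Mr1.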
